A study of Rattus norvegicus with 30 samples.

Results

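The lungs of emodin-treated rats with severe acute pancreatitis (SAP) were compared between 24 hours (Emo-24h) and 6 hours (Emo-6h) after the operation. Each group held 3 rats, so that the comparison rests on 6 of the 30 RNA-seq libraries of the study, which were taken by the treatment and time in their labels. All 6 rats were male Sprague Dawley rats of 8 weeks, and SAP had been induced in all of them with 5.0% sodium taurocholate, a bile salt, infused backwards into the biliopancreatic duct. Emodin, an anthraquinone from rhubarb root, was given into the stomach at 2 and 12 hours, so the Emo-6h rats had received 1 dose and the Emo-24h rats both. The labels state its dose as 10 mg/kg in one place and 40 mg/kg in another. Time after the operation, the number of doses and the time since the last dose cannot be told apart in this comparison. The clock hour of harvest is not given in the sources used here, and a difference in it between the groups cannot be told apart either. In the other arms used here, SAP rats received no drug, DEX rats had SAP and received dexamethasone intravenously at 2 and 12 hours, Sham rats had their pancreas moved without an infusion, and Con rats had sterile saline infused into the duct.

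Severe pancreatitis floods the circulation with digestive enzymes and inflammatory mediators, and the lung is often the first distant organ to be injured, with leaking capillaries, entering neutrophils and oedema. The hours after such an injury hold an early phase of immediate early genes, cytokines and stress hormones, and later phases in which cells divide, matrix is rebuilt and inflammation resolves or persists. Since whole lung was sequenced, fewer cells of a type and less RNA per cell cannot be told apart in any result that follows.

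In lung tissue, 1500 of the 15934 genes tested were called between the time points, which is 9.41% (edgeR quasi-likelihood test, Benjamini-Hochberg adjusted p under 0.05 and a change of at least 2-fold). Of these, 1009 genes (6.33%) were higher at 24 hours and 491 (3.08%) were lower. The genes that rose were mostly of low abundance, with a median of 0.56 FPKM in Emo-6h and 1.62 FPKM in Emo-24h, while the genes that fell had a median of 5.73 FPKM in Emo-6h and 1.93 FPKM in Emo-24h. At least an 8-fold change was seen for 87 genes that rose and 33 that fell. The median log2 fold change over all genes tested was 0.03, so changes are given as they were fitted. The 6 libraries fell into separate ranges for 7594 genes (47.7%) in FPKM, and 1402 of the 1500 called genes were among them. In a check with limma on log2(FPKM + 1), where the added 1 shrinks the changes of low genes, 274 genes were called higher and 219 lower, so that 55.6% of calls were higher against 67.3% in the main test. At any fold size, 2754 genes were higher and 2674 were lower at an adjusted p under 0.05.

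**Figure D1:**
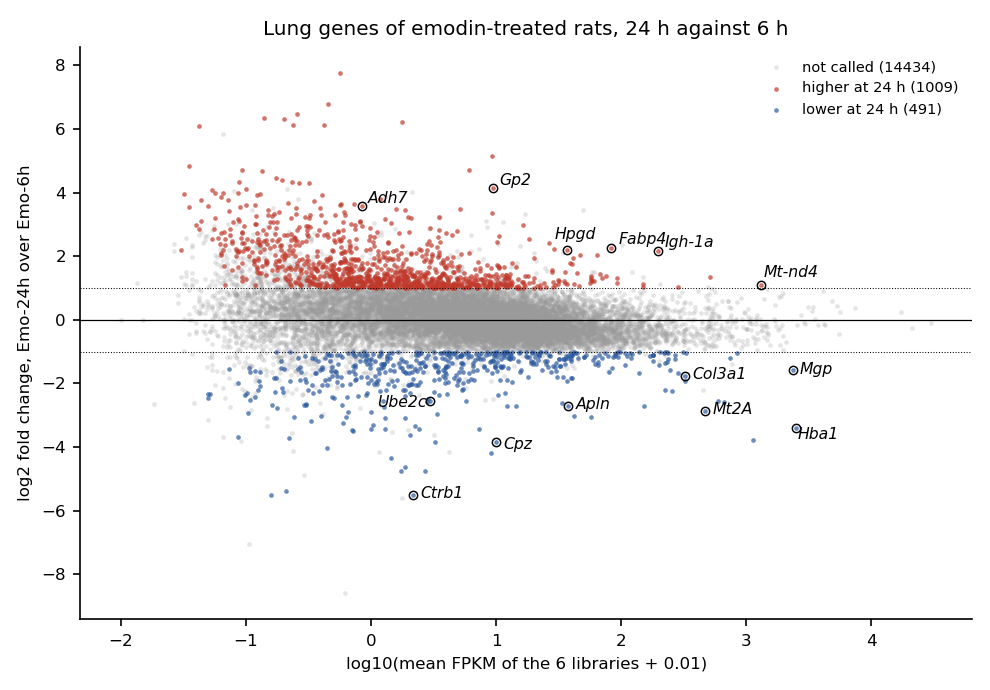
Each point is 1 of the 15934 genes tested, with the mean level over the 6 Emo libraries on a log10 axis and the log2 fold change of Emo-24h over Emo-6h on the vertical axis (dotted lines, 2-fold). Red points are the 1009 genes called higher at 24 hours, which crowd at low levels, and blue points the 491 called lower, which reach up to the hemoglobin gene Hba1 and the matrix gene Mgp.

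One library stood apart and touches several results. Replicate 3 of Emo-6h held a strong interferon response. The interferon regulator Irf7 was 40.8, 37.2 and 2136 FPKM in Emo-6h and 238, 63.1 and 199 FPKM in Emo-24h, and the antiviral GTPase Mx1 was 3.69, 2.73 and 317 FPKM in Emo-6h and 96.9, 16.5 and 97.0 FPKM in Emo-24h. The summed level of the 21 tested interferon-stimulated genes was 1252 and 979 FPKM in replicates 1 and 2 of Emo-6h, 8470 FPKM in replicate 3, and 3570, 1395 and 2966 FPKM in Emo-24h. None of the 21 was called by edgeR or DESeq2, and 0 passed an unadjusted p under 0.05. The list had a median log2 fold change of -0.26, and without that library the median was 2.36 and 9 were called higher. The same library had the highest summed level of NK and cytotoxic cell genes (454 FPKM, against 29.4 to 155 FPKM in the other 5), of T cell genes (171 FPKM) and of complement genes (2339 FPKM), and the lowest of neutrophil genes (1425 FPKM, against 3715 to 6704 FPKM). Replicate 3 of Emo-24h had the lowest level of NK and cytotoxic (29.4 FPKM) and T cell genes (36.8 FPKM). Each gene was refitted with 1 Emo library left out at a time, and a call is said to be lost where the adjusted p then reached 0.05 or the change fell short of 2-fold. Without replicate 3 of Emo-6h, 1338 genes were called over the whole comparison, of which 1037 were also called with it. The 6 libraries held 25012600 to 30368850 reads on genes, and reads were found on 17750 to 18024 genes in Emo-6h and on 18306 to 18764 genes in Emo-24h.

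**Figure D2:**
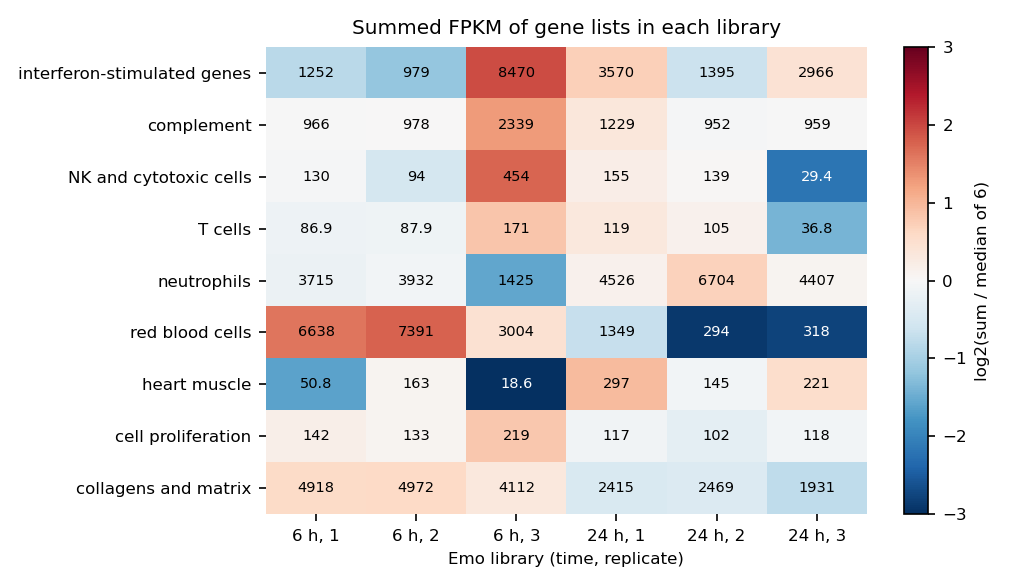
Rows are gene lists and columns the 6 Emo libraries, the number is the summed FPKM of the list's genes, and the colour is its log2 ratio to the median of the 6 libraries. Replicate 3 at 6 hours stands out for interferon-stimulated genes (8470 FPKM), and replicates 2 and 3 at 24 hours for the low red blood cell genes (294 and 318 FPKM).

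Many genes of dividing cells fell. Of 31 genes tested from a list of the cell cycle and DNA replication, 16 were called lower and none higher, against a background of 3.08% called lower. Their median log2 fold change was -1.34. The ubiquitin-conjugating enzyme Ube2c, which works with the anaphase-promoting complex, was 4.27, 3.45 and 7.27 FPKM in Emo-6h and 1.10, 0.98 and 0.59 FPKM in Emo-24h. It fell 5.85-fold (log2 fold change -2.55, SE 0.58, adjusted p = 0.00205), and all 3 libraries at 6 hours were above all 3 at 24 hours. Kif20a, a kinesin of cytokinesis, was 2.70, 2.82 and 3.81 FPKM in Emo-6h and 0.84, 0.61 and 0.39 FPKM in Emo-24h (log2 fold change -2.39, SE 0.59, adjusted p = 0.00341). Mybl2, a transcription factor of the cell cycle, was 1.63, 1.00 and 3.73 FPKM in Emo-6h and 0.72, 0.35 and 0.37 FPKM in Emo-24h (log2 fold change -2.20, SE 0.48, adjusted p = 0.00138). For these genes too, the ranges of the time points were separate.

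The mitotic kinase Plk1 was 4.76, 4.12 and 6.15 FPKM in Emo-6h and 1.77, 1.17 and 1.21 FPKM in Emo-24h (log2 fold change -1.91, SE 0.46, adjusted p = 0.00281), again with separate ranges. Cdc20, the activator of the anaphase-promoting complex, was 10.0, 8.09 and 13.01 FPKM in Emo-6h and 3.65, 2.56 and 2.45 FPKM in Emo-24h (log2 fold change -1.90, SE 0.51, adjusted p = 0.00643). Both fell by nearly the same amount, and so did the survivin gene Birc5 (log2 fold change -1.86, SE 0.58, adjusted p = 0.0159) and the spindle protein Tpx2 (log2 fold change -2.05, SE 0.55, adjusted p = 0.0066). The replication genes Mcm5 (-1.78), Tk1 (-1.75), Rrm2 (-1.39) and Top2a (-1.65, log2 fold changes) and the proliferation marker Mki67 (-1.49) were also called lower. Pcna, the sliding clamp of the replication fork, had a log2 fold change of -0.22 (adjusted p = 0.292), with 38.7, 39.4 and 48.8 FPKM in Emo-6h and 40.0, 34.3 and 38.0 FPKM in Emo-24h, so that these ranges overlapped. Aurkb, the kinase of the chromosomal passenger complex, went the other way without passing the test, at 7.72, 3.40 and 4.23 FPKM in Emo-6h and 16.7, 20.5 and 41.1 FPKM in Emo-24h (adjusted p = 0.0788). The count of 16 was 8 without replicate 3 of Emo-6h, 9 without replicate 3 of Emo-24h and 21 without replicate 2 of Emo-6h. The cyclin gene Ccnb1 was also called lower, and lost its call without replicate 3 of Emo-6h or replicate 2 or 3 of Emo-24h (adjusted p = 0.0659 to 0.131). Birc5 lost its call without replicate 3 of Emo-6h or replicate 3 of Emo-24h (adjusted p = 0.0569 to 0.0672), Tk1 without replicate 3 of Emo-6h (adjusted p = 0.0693), Rrm2 without replicate 3 of Emo-6h or replicate 2 or 3 of Emo-24h (adjusted p = 0.0652 to 0.102), Top2a without replicate 3 of Emo-6h or replicate 2 or 3 of Emo-24h (adjusted p = 0.0654 to 0.121) and Mki67 without replicate 3 of Emo-6h or replicate 1, 2 or 3 of Emo-24h (adjusted p = 0.0542 to 0.208).

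The DNA just upstream of 3 of these genes is shown because promoters of G2 and M phase genes often carry a CCAAT box and a cell cycle genes homology region. The 250 bases before the RefSeq start site were taken from build GRCr8 on the strand of the gene, with matches on either strand to CCAAT and to TTTGAA or TTCGAA in capitals, for Plk1 at chr1:186147408-186147657 (plus strand), Cdc20 at chr5:137255800-137256049 (minus strand) and Ccnb1, cyclin B1, at chr2:33655226-33655475 (minus strand).
Plk1: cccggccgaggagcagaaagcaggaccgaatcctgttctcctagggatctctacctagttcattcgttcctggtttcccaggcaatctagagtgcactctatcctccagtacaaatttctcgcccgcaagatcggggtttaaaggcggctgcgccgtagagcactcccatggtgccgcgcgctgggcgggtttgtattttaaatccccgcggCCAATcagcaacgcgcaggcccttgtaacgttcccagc
Cdc20: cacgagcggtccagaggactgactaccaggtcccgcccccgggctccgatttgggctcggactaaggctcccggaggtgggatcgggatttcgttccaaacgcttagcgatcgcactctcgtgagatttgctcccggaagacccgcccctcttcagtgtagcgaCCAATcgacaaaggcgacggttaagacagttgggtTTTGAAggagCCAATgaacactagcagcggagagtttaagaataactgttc
Ccnb1: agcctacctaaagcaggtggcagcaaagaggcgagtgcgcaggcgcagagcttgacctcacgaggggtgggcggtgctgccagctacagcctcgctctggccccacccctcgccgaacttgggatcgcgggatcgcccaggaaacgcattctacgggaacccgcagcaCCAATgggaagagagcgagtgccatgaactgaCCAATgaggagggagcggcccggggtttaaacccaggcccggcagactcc
CCAAT was found once upstream of Plk1 and in 2 places upstream of Cdc20 and of Ccnb1. TTTGAA was found upstream of Cdc20, where it began 51 bases before the start site, and neither TTTGAA nor TTCGAA was found in the other sequences. Of the list, 24 genes had such a sequence, and CCAAT was found in 15 of them (62.5%), against 34.0% of 33469 promoters of the same length. TTTGAA or TTCGAA was found in 7 of 24 (29.2%), against 17.4% of all. Among the genes called lower, 9 of 12 held CCAAT, and among those not called 6 of 12. These matches describe the letters only, and binding was not measured.

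Hemoglobin and other red blood cell genes were far lower at 24 hours. Of 8 listed genes tested, 6 fell, where 3.08% of all genes did, and none rose, with a median log2 fold change of -2.98. The alpha globin gene Hba1 was 5367, 5883 and 2263 FPKM in Emo-6h and 905, 209.6 and 232 FPKM in Emo-24h. It fell 10.5-fold (log2 fold change -3.39, SE 0.76, adjusted p = 0.0017), with a gap between the lowest library at 6 hours and the highest at 24 hours. The alpha globin copy Hba2, which was not in the list, was 2482, 2853 and 962 FPKM in Emo-6h and 283, 83.9 and 107 FPKM in Emo-24h (log2 fold change -3.78, SE 0.82, adjusted p = 0.00127). The beta globin gene Hbb was 1228, 1446 and 707 FPKM in Emo-6h and 434, 77.5 and 83.0 FPKM in Emo-24h (log2 fold change -2.57, SE 0.85, adjusted p = 0.0232). Globin genes are close copies of each other, and since reads with more than 1 position were discarded, their separate values are uncertain. Alas2, the first enzyme of heme synthesis in red cells, was 15.9, 15.3 and 8.72 FPKM in Emo-6h and 2.64, 0.80 and 0.46 FPKM in Emo-24h (log2 fold change -3.43, SE 0.81, adjusted p = 0.00259). The band 3 anion exchanger Slc4a1 was 8.32, 3.03 and 6.70 FPKM in Emo-6h and 0.82, 0.34 and 0.17 FPKM in Emo-24h (log2 fold change -3.84, SE 1.25, adjusted p = 0.0213). For these 5 genes replicate 1 of Emo-24h was the highest of its group, and the groups did not overlap. The remaining calls were the globin gene Hbb-b1 (log2 fold change -4.18, SE 1.33, adjusted p = 0.0182) and Epb42, of the red cell membrane (log2 fold change -2.20, SE 0.78, adjusted p = 0.0318), and outside the list the theta globin gene Hbq1b fell (log2 fold change -4.75, SE 1.07, adjusted p = 0.00181). Ahsp, the chaperone of alpha globin, was 9.96, 4.33 and 13.6 FPKM in Emo-6h and 3.41, 4.76 and 2.05 FPKM in Emo-24h, and its ranges overlapped (adjusted p = 0.208). Gata1, the erythroid transcription factor, was under 0.5 FPKM in every library and was not called (adjusted p = 0.268). Summed over 5 globin genes, globin reads took 0.262% to 0.682% of all reads in Emo-6h and 0.0272% to 0.115% in Emo-24h. The pulmonary artery was flushed with saline at harvest. How much blood each piece of lung still held was not measured, and its part in the result was not tested. Without replicate 2 or without replicate 3 of Emo-24h 2 of the 8 were called lower, and without replicate 1 of Emo-6h 3 were. Hbb lost its call without replicate 1 of Emo-6h or replicate 2 or 3 of Emo-24h (adjusted p = 0.0533 to 0.0976), Hbb-b1 without replicate 2 of Emo-6h or replicate 2 or 3 of Emo-24h (adjusted p = 0.0688 to 0.112), Slc4a1 without replicate 1 of Emo-6h or replicate 2 or 3 of Emo-24h (adjusted p = 0.0564 to 0.0799) and Epb42 without replicate 1 or 3 of Emo-6h or replicate 1, 2 or 3 of Emo-24h (adjusted p = 0.0554 to 0.105).

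Several matrix genes fell. Of 17 collagen and matrix genes tested, 8 fell and none rose (median log2 fold change -0.93), against 3.08% of all genes called lower. For 11 of the 17, all 3 libraries at 6 hours lay above all 3 at 24 hours, where 47.7% of all genes had separate ranges in either direction. Col3a1, which encodes type III collagen, was 500.4, 529.8 and 453 FPKM in Emo-6h and 178, 201 and 73.5 FPKM in Emo-24h (log2 fold change -1.77, SE 0.48, adjusted p = 0.0064). Col1a1, of type I collagen, was 171, 256 and 198 FPKM in Emo-6h and 94.3, 72.9 and 35.5 FPKM in Emo-24h (log2 fold change -1.68, SE 0.53, adjusted p = 0.0174). Replicate 3 of Emo-24h was the lowest library for both, and neither gene overlapped between groups. The basement membrane genes Col4a1 (log2 fold change -1.02, SE 0.21, adjusted p = 8.62e-04) and Col4a2 (log2 fold change -1.15, SE 0.23, adjusted p = 8.04e-04) fell less and more evenly between rats. Eln, elastin, was 418, 464 and 365 FPKM in Emo-6h and 103, 85.3 and 84.9 FPKM in Emo-24h, which did not overlap (log2 fold change -2.24, SE 0.80, adjusted p = 0.0328). Tnc, tenascin C, fell as well (log2 fold change -1.65, SE 0.50, adjusted p = 0.0136). Mgp, an inhibitor of calcification in vessel and cartilage matrix, fell from 4421, 3379 and 2675 FPKM in Emo-6h to 1118, 1185 and 1285 FPKM in Emo-24h (log2 fold change -1.59, SE 0.30, adjusted p = 4.33e-04). Cpz, a carboxypeptidase that binds Wnt proteins, was 20.1, 24.7 and 10.7 FPKM in Emo-6h and 1.74, 1.39 and 0.85 FPKM in Emo-24h and fell 14.4-fold (log2 fold change -3.85, SE 0.53, adjusted p = 3.50e-05). Fn1, fibronectin, had overlapping ranges and a log2 fold change of -0.29 (adjusted p = 0.373). Without replicate 3 of Emo-24h, 4 matrix genes were called lower, and without replicate 1 of Emo-6h 5 were. Col1a1 lost its call without replicate 3 of Emo-24h (adjusted p = 0.0805), Col4a1 without replicate 1 of Emo-6h or replicate 2 of Emo-24h (log2 fold change -0.92), Eln without replicate 1 or 2 of Emo-6h or replicate 1, 2 or 3 of Emo-24h (adjusted p = 0.0559 to 0.0913) and Tnc without replicate 3 of Emo-24h (adjusted p = 0.0597).

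Among genes of endothelial identity, 3 of 16 fell and none rose, against 3.08% of all genes called lower, and 5 fell without replicate 3 of Emo-6h. Apln, the peptide ligand apelin of tip and capillary cells, was 81.3, 38.4 and 75.9 FPKM in Emo-6h and 11.5, 12.8 and 6.87 FPKM in Emo-24h and fell 6.54-fold (log2 fold change -2.71, SE 0.46, adjusted p = 1.76e-04). Nos3, the endothelial nitric oxide synthase, was 13.5, 8.77 and 9.03 FPKM in Emo-6h and 4.17, 3.33 and 3.26 FPKM in Emo-24h (log2 fold change -1.59, SE 0.19, adjusted p = 1.93e-05). Cldn5, the tight junction claudin that seals capillaries, was 1235, 1039 and 776 FPKM in Emo-6h and 491, 414 and 460.1 FPKM in Emo-24h (log2 fold change -1.20, SE 0.19, adjusted p = 9.01e-05). The 3 genes had no overlap between groups, and were called whichever Emo library was left out. The angiopoietin receptor Tek was 73.9, 81.3 and 86.7 FPKM in Emo-6h and 147, 94.5 and 130.3 FPKM in Emo-24h (log2 fold change 0.58, adjusted p = 0.0101) and the VEGF receptor Kdr had a log2 fold change of 0.66 (adjusted p = 0.0298), both under 2-fold. Cdh5, VE-cadherin, and Vwf, von Willebrand factor, did not pass the test (-0.37 and -0.08, adjusted p = 0.118 and 0.79). Of 13 genes of activated endothelium, Vcam1 rose and Plaur fell, against 6.33% of all genes called higher and 3.08% lower, and 2 fell without replicate 2 of Emo-6h. Vcam1, an adhesion molecule for leukocytes, was 4.86, 4.78 and 6.63 FPKM in Emo-6h and 22.0, 14.9 and 16.5 FPKM in Emo-24h (log2 fold change 1.66, SE 0.37, adjusted p = 0.00158). Plaur, the urokinase receptor, was 29.5, 22.8 and 39.3 FPKM in Emo-6h and 11.3, 14.1 and 20.9 FPKM in Emo-24h (log2 fold change -1.02, SE 0.24, adjusted p = 0.00237). Both genes had separate ranges, and Plaur lost its call without replicate 3 of Emo-6h or replicate 1 or 2 of Emo-24h (log2 fold change -0.80 to -0.97).

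**Figure D3:**
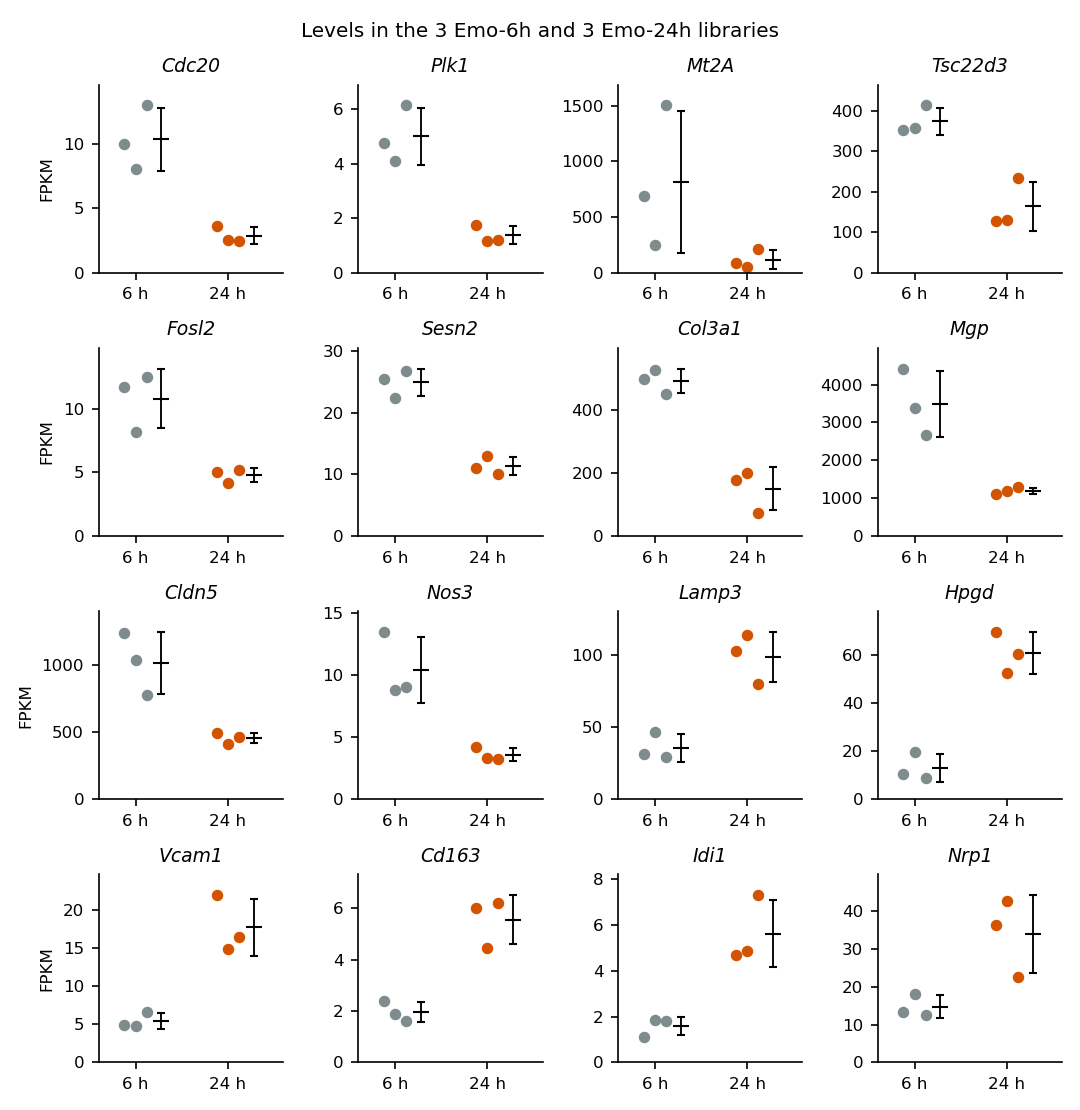
FPKM of 16 genes in the 3 Emo-6h libraries (grey) and the 3 Emo-24h libraries (orange), with the mean and SD beside each group as black bars and each axis starting at 0. In all 16 panels the points of the groups do not overlap, from Cdc20, Plk1 and Mt2A, which were lower at 24 hours, to Lamp3, Hpgd and Vcam1, which were higher.

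Metallothioneins, small proteins that bind zinc and copper and are induced by metals, glucocorticoids and inflammation, were among the genes that fell. Mt2A was 691, 252 and 1502 FPKM in Emo-6h and 85.3, 47.9 and 210.0 FPKM in Emo-24h, a 7.27-fold fall (log2 fold change -2.86, SE 1.02, adjusted p = 0.0337). The gene symbol Mt1 stands for 2 entries of the count table. The entry on chromosome 17 was 361, 169.8 and 577 FPKM in Emo-6h and 49.7, 62.8 and 132 FPKM in Emo-24h (log2 fold change -2.21, SE 0.62, adjusted p = 0.00858), and the entry on chromosome 19 was 9.04, 3.75 and 15.3 FPKM in Emo-6h and 1.32, 1.88 and 4.43 FPKM in Emo-24h (log2 fold change -1.91, SE 0.67, adjusted p = 0.0313). Replicate 3 was the highest and replicate 2 the lowest of Emo-6h for all 3 entries. Mt2A and the chromosome 17 entry did not overlap between groups, and for the chromosome 19 entry replicate 2 of Emo-6h lay under replicate 3 of Emo-24h. These sequences are near copies, so reads may have been divided between them. Of 8 genes tested in the list, these 3 fell and none rose, against 3.08% of all genes called lower. Mt2A lost its call without replicate 1 or 3 of Emo-6h or replicate 1 or 2 of Emo-24h (adjusted p = 0.0547 to 0.144) and the chromosome 19 entry without replicate 1 or 3 of Emo-6h or replicate 1 or 2 of Emo-24h (adjusted p = 0.061 to 0.16), while the chromosome 17 entry was called in every such fit.

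The upstream DNA of Mt2A and of the chromosome 19 Mt1 entry is shown for the metal response elements through which zinc acts on metallothionein genes, and none is shown for the chromosome 17 entry. The 250 bases before the RefSeq start are given for Mt1 at chr19:10832976-10833225 and Mt2A at chr19:10838709-10838958, both on the minus strand of GRCr8, with matches on either strand to TGCACNC or TGCGCNC in capitals.
Mt1: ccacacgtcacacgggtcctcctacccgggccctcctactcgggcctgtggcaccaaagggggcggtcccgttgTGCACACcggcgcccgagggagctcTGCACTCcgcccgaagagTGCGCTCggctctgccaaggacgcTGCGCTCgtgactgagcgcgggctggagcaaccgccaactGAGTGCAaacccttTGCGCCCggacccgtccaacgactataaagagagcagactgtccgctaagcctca
Mt2A: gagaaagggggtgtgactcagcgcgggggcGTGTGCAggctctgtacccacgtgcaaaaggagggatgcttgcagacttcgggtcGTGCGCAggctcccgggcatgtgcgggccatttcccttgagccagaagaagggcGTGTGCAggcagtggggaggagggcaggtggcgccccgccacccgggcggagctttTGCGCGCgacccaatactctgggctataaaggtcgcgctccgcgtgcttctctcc
There were 6 matches upstream of Mt1 and 4 upstream of Mt2A, and the one nearest the start site began 55 bases before it in both. At least 1 match was found in 20.6% of all 33469 promoters and in 5 of the 6 listed genes with a sequence. A match is a likeness of letters, and occupancy was not measured.

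Some glucocorticoid-responsive genes fell by 24 hours. Of 16 entries tested for glucocorticoid targets, 5 fell and none rose (median log2 fold change -0.79), against 3.08% of all genes called lower. The leucine zipper gene Tsc22d3, also called Gilz, was 353, 356 and 413 FPKM in Emo-6h and 128, 130.1 and 233 FPKM in Emo-24h (log2 fold change -1.22, SE 0.29, adjusted p = 0.00287). Map3k6, a stress kinase, was 31.0, 23.0 and 31.4 FPKM in Emo-6h and 8.43, 7.48 and 17.1 FPKM in Emo-24h (log2 fold change -1.40, SE 0.32, adjusted p = 0.00225). Per1, a clock gene that glucocorticoids also induce, was 36.5, 36.1 and 37.5 FPKM in Emo-6h and 16.4, 13.6 and 21.4 FPKM in Emo-24h (log2 fold change -1.14, SE 0.20, adjusted p = 2.37e-04). The feedback inhibitor of EGF signalling Errfi1 (log2 fold change -1.17, SE 0.34, adjusted p = 0.0112) and the phosphatase Dusp1 (log2 fold change -1.03, SE 0.38, adjusted p = 0.0393) fell as well. None of these 5 overlapped between groups. Fkbp5, the cochaperone of the glucocorticoid receptor, was 57.2, 58.1 and 75.0 FPKM in Emo-6h and 26.7, 21.9 and 64.8 FPKM in Emo-24h, where replicate 3 of Emo-24h lay within the Emo-6h range (adjusted p = 0.169). Without that replicate 9 of the 16 were called lower, and without replicate 1 or 2 of Emo-24h 3 were. Errfi1 lost its call without replicate 1 or 2 of Emo-24h (adjusted p = 0.0526 to 0.0621) and Dusp1 without replicate 1 or 3 of Emo-6h or replicate 1 or 2 of Emo-24h (adjusted p = 0.0807 to 0.152). Emodin-treated rats received no glucocorticoid, and blood hormone levels are not among these data.

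Of 18 immediate early genes of the AP-1 and related families, 2 fell and none rose, with a median log2 fold change of -0.82, against 3.08% of all genes called lower. Without replicate 2 of Emo-6h 3 were called lower, and without any other Emo library but replicate 1 of Emo-24h 1 was. Fosl2, a partner of Jun, was 11.8, 8.15 and 12.6 FPKM in Emo-6h and 5.06, 4.14 and 5.18 FPKM in Emo-24h (log2 fold change -1.22, SE 0.28, adjusted p = 0.00212). Nr4a3, an orphan nuclear receptor, was under 1 FPKM (log2 fold change -1.66, SE 0.60, adjusted p = 0.0356) and completes the count. Fos itself (16.2, 17.04 and 21.6 FPKM in Emo-6h and 9.48, 6.28 and 11.8 FPKM in Emo-24h, adjusted p = 0.143) and Junb (-0.85, adjusted p = 0.0857) were not called. Among 12 targets of p53, 3 fell, namely Cdkn1a, Tnfrsf10b and Sesn2. Cdkn1a, the p21 inhibitor of cyclin-dependent kinases, was 135, 88.0 and 152 FPKM in Emo-6h and 26.6, 23.1 and 84.3 FPKM in Emo-24h (log2 fold change -1.50, SE 0.46, adjusted p = 0.015), with replicate 3 of Emo-24h well above its group. Sesn2, a stress sensor that restrains mTORC1, was 25.5, 22.5 and 26.9 FPKM in Emo-6h and 11.1, 12.9 and 10.1 FPKM in Emo-24h, with the smallest error of these (log2 fold change -1.18, SE 0.13, adjusted p = 9.39e-06). Tnfrsf10b, a death receptor, was 2.47, 2.05 and 2.55 FPKM in Emo-6h and 1.12, 0.96 and 0.81 FPKM in Emo-24h (log2 fold change -1.34, SE 0.35, adjusted p = 0.00483). Mdm2, which p53 also induces, had a log2 fold change of 0.47 (adjusted p = 0.0104), under 2-fold. The groups were separate for the 3 p53 targets called. Nr4a3 lost its call without replicate 1 or 3 of Emo-6h or replicate 2 or 3 of Emo-24h (adjusted p = 0.0809 to 0.165) and Cdkn1a without replicate 3 of Emo-6h or replicate 1 or 2 of Emo-24h (adjusted p = 0.0515 to 0.0794).

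Of 18 genes of hypoxia and glycolysis, 3 fell and none rose, against 3.08% of all genes called lower. Ddit4, an inhibitor of mTORC1 that low oxygen and glucocorticoids induce, was 86.2, 99.1 and 92.0 FPKM in Emo-6h and 26.4, 20.7 and 63.8 FPKM in Emo-24h (log2 fold change -1.34, SE 0.40, adjusted p = 0.012). Its replicate 3 of Emo-24h was nearer to Emo-6h than the others. Pfkfb3, which drives glycolysis, was 46.1, 32.7 and 55.1 FPKM in Emo-6h and 16.3, 16.3 and 25.8 FPKM in Emo-24h (log2 fold change -1.24, SE 0.27, adjusted p = 0.00159). Hmox1, heme oxygenase, was 83.1, 53.4 and 69.4 FPKM in Emo-6h and 29.7, 31.2 and 34.0 FPKM in Emo-24h (log2 fold change -1.16, SE 0.31, adjusted p = 0.00638), and it was also the only one of 14 NRF2 targets called, against 9.41% of all genes. Car9, Ankrd37 and Egln3, which respond to hypoxia, did not pass the test (log2 fold changes 0.31, 0.04 and 0.21, adjusted p = 0.734, 0.917 and 0.441). Chac1 and Sesn2 were the only 2 called of 20 genes of the unfolded protein and amino acid response, whose median log2 fold change was -0.55. Without replicate 1 or 2 of Emo-6h 5 were called lower, without any other Emo library 1 was, and without replicate 3 of Emo-6h the median was -0.14. Chac1, which degrades glutathione, was 1.19, 1.48 and 7.72 FPKM in Emo-6h and 1.31, 1.27 and 0.94 FPKM in Emo-24h, so that replicate 3 of Emo-6h was far above the other 5 libraries, which overlapped. It had a log2 fold change of -1.62 (adjusted p = 0.0234), and of -0.24 without that library. Ddit4 lost its call without replicate 1 or 2 of Emo-24h (adjusted p = 0.0616 to 0.0696), Hmox1 without replicate 1 of Emo-6h (log2 fold change -0.99) and Chac1 without replicate 3 of Emo-6h or replicate 1, 2 or 3 of Emo-24h (adjusted p = 0.051 to 0.72). None of 11 heat shock chaperones was called by edgeR or DESeq2, and 2 passed an unadjusted p under 0.05 with under 2-fold differences, and 1 was called lower without replicate 2 of Emo-6h.

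In complement, replicate 3 of Emo-6h had the highest summed level of the 6 libraries (2339 FPKM), and 4 of 16 entries were called lower, against 3.08% of all genes. These were C4a, C2, Cfb and C1r, components of the classical and alternative pathways. The symbols C4a and C2 each stand for another entry as well, which was not called. Cfb, factor B, was 28.8, 33.8 and 84.0 FPKM in Emo-6h and 23.5, 25.7 and 20.2 FPKM in Emo-24h (log2 fold change -1.13, SE 0.38, adjusted p = 0.0252). Without replicate 3 of Emo-6h no complement entry was called lower and 2 were called higher. Without replicate 3 of Emo-24h none was called, without replicate 2 of Emo-24h 2 were called lower, and without replicate 1 or 2 of Emo-6h 6 were. Cfb lost its call without replicate 3 of Emo-6h or replicate 1 or 3 of Emo-24h (adjusted p = 0.0633 to 0.319). In a fit of the 6 Emo libraries alone none of the 4 was called.

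Inflammatory genes and most leukocyte genes were not called between the time points. None of 19 cytokines and chemokines, 15 neutrophil genes, 14 T cell genes, 10 NK and cytotoxic genes, 11 B cell and plasma cell genes and 11 genes of MHC class II presentation was called by edgeR. At an unadjusted p under 0.05 and 2-fold, 1 cytokine or chemokine, 1 T cell gene and 3 NK and cytotoxic genes were lower, none was higher, and the other lists had 0. DESeq2 called 1 gene lower in each of these 3 lists and none in the other 3. For NK and cytotoxic genes the direction rested on replicate 3 of Emo-6h, since the list's median log2 fold change was -1.09 with it and 0.16 without it, when 1 gene was called higher. Without replicate 2 of Emo-6h 3 were called lower, and without replicate 1 of Emo-6h 1 was. The neutrophil alarmin S100a8 was 1804, 1860.0 and 472 FPKM in Emo-6h and 1905, 3078 and 2189 FPKM in Emo-24h (adjusted p = 0.587), with replicate 3 of Emo-6h far under the other 5. The chemokine Cxcl1 was 20.6, 10.3 and 12.0 FPKM in Emo-6h and 22.6, 13.8 and 22.3 FPKM in Emo-24h (adjusted p = 0.621), and Il1b, interleukin 1 beta, was 18.4, 25.7 and 10.7 FPKM in Emo-6h and 27.5, 16.1 and 33.6 FPKM in Emo-24h (adjusted p = 0.624). Both overlapped between the groups. Cxcl10, which interferon induces, was 1.95, 1.00 and 268 FPKM in Emo-6h and 24.8, 2.61 and 14.7 FPKM in Emo-24h, so that 1 library set its mean (adjusted p = 0.168). Il33, an alarmin of epithelium and endothelium, was 60.8, 71.0 and 47.6 FPKM in Emo-6h and 139, 121 and 67.2 FPKM in Emo-24h, with a difference under 2-fold (adjusted p = 0.0359). Bcl3, a nuclear regulator of NF-kB, was the only one of 14 NF-kB feedback genes called (2 were lower without replicate 3 of Emo-24h), at 38.7, 21.9 and 28.8 FPKM in Emo-6h and 13.02, 12.9 and 17.1 FPKM in Emo-24h (log2 fold change -1.10, SE 0.40, adjusted p = 0.0362). Of 15 macrophage and monocyte genes, Cd163, the scavenger receptor for hemoglobin with haptoglobin, was the only one called, against 9.41% of all genes. Without replicate 3 of either Emo group 2 were called higher, and without replicate 1 or 2 of Emo-6h 1 was called higher and 1 lower. Cd163 was 2.39, 1.90 and 1.61 FPKM in Emo-6h and 6.02, 4.46 and 6.18 FPKM in Emo-24h and rose 2.75-fold (log2 fold change 1.46, SE 0.31, adjusted p = 0.00114). Cd68, a general macrophage marker, had a log2 fold change of -0.72 (adjusted p = 0.0361), which is under 2-fold, and Marco was at or near 0 in every library but replicate 2 of Emo-24h (0.52 FPKM). The immunoglobulin heavy chain gene Igh-1a was 64.4, 82.0 and 61.1 FPKM in Emo-6h and 366, 267 and 330.0 FPKM in Emo-24h (log2 fold change 2.18, SE 0.83, adjusted p = 0.0452). Immunoglobulin genes share sequence, and reads with several positions were discarded. Bcl3 lost its call without replicate 1 or 3 of Emo-6h or replicate 1 or 2 of Emo-24h (adjusted p = 0.0604 to 0.154) and Igh-1a whichever Emo library was left out (adjusted p = 0.0677 to 0.118).

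Among 14 genes of coagulation and fibrinolysis, 1 rose and 2 fell, against 6.33% of all genes called higher and 3.08% lower. Without replicate 2 of Emo-6h 4 were called lower, without replicate 3 of Emo-24h 3 were, and without replicate 3 of Emo-6h or replicate 1 or 2 of Emo-24h 1 was. Procr, the endothelial receptor of protein C, was 40.6, 20.7 and 42.2 FPKM in Emo-6h and 15.8, 13.7 and 14.4 FPKM in Emo-24h (log2 fold change -1.29, SE 0.35, adjusted p = 0.00726), which did not overlap. Plaur is given above. F13a1, the A chain of factor XIII and a gene of resident macrophages, was 2.02, 1.73 and 1.58 FPKM in Emo-6h and 5.80, 3.65 and 3.60 FPKM in Emo-24h and rose (log2 fold change 1.24, SE 0.47, adjusted p = 0.0436). A2m, alpha-2-macroglobulin, the only one of 16 acute-phase and antimicrobial genes called, was at 0.03 FPKM or less in Emo-6h and at 0.36 FPKM or less in Emo-24h. F13a1 lost its call whichever Emo library was left out (adjusted p = 0.0607 to 0.147).

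Among 15 genes of lipid mediators, 3 rose and 1 fell, against 6.33% and 3.08% of all genes. Hpgd, the dehydrogenase that inactivates prostaglandins, was 10.6, 19.8 and 8.72 FPKM in Emo-6h and 69.5, 52.2 and 60.1 FPKM in Emo-24h and rose 4.54-fold (log2 fold change 2.18, SE 0.39, adjusted p = 2.69e-04). Hpgds, a synthase of prostaglandin D2, was 0.48, 0.34 and 0.38 FPKM in Emo-6h and 1.70, 1.26 and 1.31 FPKM in Emo-24h (log2 fold change 1.78, SE 0.48, adjusted p = 0.00653). Ptgs2, the inducible cyclooxygenase, was 0.41, 0.30 and 0.30 FPKM in Emo-6h and 1.18, 1.09 and 0.75 FPKM in Emo-24h (log2 fold change 1.52, SE 0.48, adjusted p = 0.0172). Alox15, which oxidizes arachidonic and linoleic acid, fell, from 17.8, 17.1 and 23.2 FPKM in Emo-6h to 4.96, 6.13 and 1.35 FPKM in Emo-24h (log2 fold change -2.29, SE 0.86, adjusted p = 0.0433). These 4 genes had separate ranges, and Ptgs2 lost its call without replicate 2 or 3 of Emo-6h (adjusted p = 0.0564 to 0.0569) and Alox15 whichever Emo library was left out (adjusted p = 0.0529 to 0.15). The other 11 genes of the list were not called.

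Lamp3, a membrane protein of the lamellar bodies of alveolar type 2 cells, was 31.1, 46.4 and 29.1 FPKM in Emo-6h and 103, 114 and 79.9 FPKM in Emo-24h (log2 fold change 1.43, SE 0.23, adjusted p = 9.39e-05). The other 10 genes of that cell type were not called, among them the surfactant gene Sftpc (log2 fold change -0.24, adjusted p = 0.4) and the lipid transporter Abca3 (-0.27, adjusted p = 0.329). Of 9 type 1 cell genes, Akap5, an anchor of protein kinase A, rose (log2 fold change 1.11, SE 0.39, adjusted p = 0.0301), and Ager, the receptor that marks these cells, had a log2 fold change of -0.96 (adjusted p = 0.0278). None of 11 genes of club and secretory cells and 1 of 12 ciliated cell genes, the assembly factor Ccdc39 (log2 fold change 1.18, SE 0.32, adjusted p = 0.00729), was called, and without replicate 2 of Emo-6h 1 and 3 were called higher. These counts stand against 6.33% of all genes called higher. Among the channels and pumps of alveolar fluid, the water channel Aqp1 of endothelium was 477, 314 and 164 FPKM in Emo-6h and 199, 132 and 147 FPKM in Emo-24h (log2 fold change -1.04, SE 0.26, adjusted p = 0.00365) and was lower, with replicate 3 of Emo-6h inside the Emo-24h range. Slc12a2, the sodium-potassium-chloride cotransporter, was higher, at 6.24, 7.89 and 5.35 FPKM in Emo-6h and 16.9, 15.8 and 11.8 FPKM in Emo-24h (log2 fold change 1.15, SE 0.19, adjusted p = 1.74e-04). The epithelial sodium channel subunit Scnn1a had a difference under 2-fold, at 207, 228 and 196 FPKM in Emo-6h and 122, 130.2 and 139.5 FPKM in Emo-24h (adjusted p = 0.00574). Akap5 lost its call without replicate 1 or 3 of Emo-6h or replicate 2 or 3 of Emo-24h (adjusted p = 0.0664 to 0.139), Ccdc39 without replicate 3 of Emo-6h (log2 fold change 0.96) and Aqp1 without replicate 1 of Emo-6h or replicate 2 of Emo-24h (adjusted p = 0.064 and log2 fold change -0.94).

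Fabp4, a fatty acid carrier of macrophages, endothelium and fat cells, was 12.8, 47.9 and 24.5 FPKM in Emo-6h and 134, 90.4 and 191 FPKM in Emo-24h (log2 fold change 2.27, SE 0.62, adjusted p = 0.0072). Idi1, an enzyme of cholesterol synthesis, was 1.12, 1.85 and 1.79 FPKM in Emo-6h and 4.69, 4.84 and 7.29 FPKM in Emo-24h (log2 fold change 1.79, SE 0.35, adjusted p = 6.47e-04), and it was the only one of 20 genes of that pathway called, against 6.33% of all genes called higher, with Hmgcs1 next (0.99, adjusted p = 9.88e-04). Without replicate 2 of Emo-6h 3 genes of the pathway were called higher and 1 lower, and without replicate 1 or 2 of Emo-24h 2 were called higher. Meox2, a transcription factor of mesenchyme and vessels, was 1.50, 1.72 and 1.45 FPKM in Emo-6h and 6.47, 6.95 and 4.29 FPKM in Emo-24h (log2 fold change 1.87, SE 0.27, adjusted p = 4.88e-05). It was the only one of 11 transcription factors of lung mesenchyme called, against 9.41% of all genes. Of 7 targets of the aryl hydrocarbon receptor, 2 rose and none fell, and none was called without replicate 3 of Emo-6h. These were Aldh3a1 (log2 fold change 1.62, SE 0.45, adjusted p = 0.00821) and Cyp1b1 (log2 fold change 1.03, SE 0.37, adjusted p = 0.0324), while Cyp1a1, its classical target, was 8.04, 14.0 and 26.6 FPKM in Emo-6h and 4.68, 2.46 and 10.1 FPKM in Emo-24h (adjusted p = 0.226). In this gene the groups overlapped. Of the 20 clock genes, 1 rose and 2 fell, against 6.33% of all genes called higher and 3.08% lower. Per1 and Nfil3, a repressor of clock output, fell. Npas2, a partner of Bmal1, rose, at 0.71, 0.82 and 0.52 FPKM in Emo-6h and 1.70, 1.33 and 1.87 FPKM in Emo-24h (log2 fold change 1.22, SE 0.35, adjusted p = 0.00945). Nfil3 was 19.1, 10.8 and 22.0 FPKM in Emo-6h and 6.53, 7.74 and 9.02 FPKM in Emo-24h (log2 fold change -1.20, SE 0.40, adjusted p = 0.0224). Arntl, the gene of Bmal1, and Dbp did not pass the test (adjusted p = 0.319 and 0.888). Aldh3a1 lost its call without replicate 3 of Emo-6h (adjusted p = 0.0522), Cyp1b1 without replicate 3 of Emo-6h or replicate 1 or 3 of Emo-24h (adjusted p = 0.064 to 0.157), Npas2 without replicate 3 of Emo-6h (adjusted p = 0.0502) and Nfil3 without replicate 1 or 3 of Emo-6h or replicate 1 or 2 of Emo-24h (adjusted p = 0.0609 to 0.0897).

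The largest relative rises eligible for naming were seen in genes with a mean under 1 FPKM at 6 hours. Gp2, a glycoprotein of pancreatic zymogen granules and of M cells, was 0.05, 2.47 and 0.42 FPKM in Emo-6h and 25.6, 11.7 and 16.1 FPKM in Emo-24h (log2 fold change 4.14, SE 1.25, adjusted p = 0.0133). Ctrb1, the pancreatic enzyme chymotrypsinogen B, went the other way with the largest fall, from 0.81, 5.53 and 6.30 FPKM in Emo-6h to 0.04, 0.19 and 0.04 FPKM in Emo-24h (log2 fold change -5.50, SE 1.33, adjusted p = 0.00299). These were the only calls among 10 tested genes of a list of pancreatic enzymes that was written after the values were seen, where 9.41% of all genes were called. Prss2 and Cpa1, other enzymes of the pancreas, were under 0.6 FPKM in every library and were not called. Adh7, an alcohol and retinol dehydrogenase, was 0.17, 0.08 and 0.12 FPKM in Emo-6h and 1.25, 1.72 and 1.63 FPKM in Emo-24h (log2 fold change 3.57, SE 0.75, adjusted p = 9.88e-04). Myoc (log2 fold change 3.79), Capn8 (3.38), Il22ra2, the decoy receptor of interleukin 22 (3.09), Coch (3.08), an entry of Wfdc18 (3.02) and Rbp7 (2.87) had means of 0.23 FPKM or less at 6 hours. Besides Ctrb1, the globin genes, Cpz and Slc4a1, the largest falls were those of Cnga3, a channel gated by cyclic nucleotides, at 6.03, 3.89 and 5.60 FPKM in Emo-6h and 0.15, 0.33 and 0.10 FPKM in Emo-24h (log2 fold change -4.76, SE 1.37, adjusted p = 0.00984), and of Fam64a, a mitotic gene, at 5.08, 4.03 and 1.64 FPKM in Emo-6h and 0.05, 0.34 and 0.04 FPKM in Emo-24h (log2 fold change -4.64, SE 1.40, adjusted p = 0.0137). Gp2 lost its call without replicate 1 or 3 of Emo-6h (adjusted p = 0.0563 to 0.0607), Myoc without replicate 1 or 3 of Emo-6h or replicate 1 of Emo-24h (adjusted p = 0.0644 to 0.0773), Il22ra2 without replicate 3 of Emo-24h (adjusted p = 0.0509), Wfdc18 without replicate 2 or 3 of Emo-6h or replicate 3 of Emo-24h (adjusted p = 0.0845 to 0.147), Rbp7 without replicate 1 or 3 of Emo-6h or replicate 1 or 3 of Emo-24h (adjusted p = 0.0545 to 0.192) and Fam64a without replicate 1 or 3 of Emo-24h (adjusted p = 0.0545 to 0.0558).

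Of the genes of the mitochondrial genome, 2 of 11 rose and none fell, with a median log2 fold change of 0.54, against 6.33% of all genes called higher. Without replicate 3 of Emo-6h 1 was called, and without replicate 2 of Emo-6h 3 were. Mt-nd4 was 822, 981 and 652 FPKM in Emo-6h and 1807, 1918 and 1715 FPKM in Emo-24h (log2 fold change 1.11, SE 0.22, adjusted p = 5.60e-04), the largest gain in FPKM of any gene eligible for naming, and its neighbour Mt-nd4l was 286, 338 and 215 FPKM in Emo-6h and 870.0, 902 and 459 FPKM in Emo-24h (log2 fold change 1.36, SE 0.29, adjusted p = 0.00122). These genes overlap on 1 transcript, so their reads cannot be fully divided. Reads on the mitochondrial chromosome were 2.78% to 4.15% of all reads in Emo-6h and 5.05% to 5.68% in Emo-24h. Clec2g, a C-type lectin of the nuclear genome, also gained many FPKM, at 179.7, 211 and 163 FPKM in Emo-6h and 376, 371 and 409 FPKM in Emo-24h (log2 fold change 1.02, SE 0.22, adjusted p = 0.00108). Mt-nd4 lost its call without replicate 3 of Emo-6h (log2 fold change 0.96) and Clec2g without replicate 3 of Emo-6h or replicate 3 of Emo-24h (log2 fold change 0.93).

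In every gene class more genes rose than fell, in unequal shares, and the difference between classes was not tested. Of 380 long non-coding RNA genes in the annotation, 80 rose and 7 fell (22.9% called), and of 269 pseudogenes 56 rose and 4 fell, while of 15179 protein-coding genes 850 rose and 479 fell (8.76%). The median log2 fold change was 0.59 over the lncRNA genes and 0.02 over the protein-coding genes. The 3 most abundant lncRNAs that rose were AABR07019088.1 on chromosome 15, at 13.7, 17.6 and 23.4 FPKM in Emo-6h and 28.1, 51.7 and 79.0 FPKM in Emo-24h (log2 fold change 1.52, SE 0.45, adjusted p = 0.0121), Rn60_1_1359.1 on chromosome 1 (log2 fold change 1.00, SE 0.17, adjusted p = 1.80e-04) and Rn60_X_0663.2 on chromosome X (log2 fold change 2.44, SE 0.67, adjusted p = 0.00749). Rn60_1_1359.1 was at the 2-fold limit, with log2 fold changes of 0.98 under RLE scaling and under DESeq2. The 3 most abundant that fell were AABR07004868.2 on chromosome 1 (log2 fold change -1.98, SE 0.59, adjusted p = 0.012), LOC300024 on chromosome 7 (log2 fold change -1.99, SE 0.52, adjusted p = 0.00552) and AABR07047256.1 on chromosome 5 (log2 fold change -1.47, SE 0.39, adjusted p = 0.0059). Among the 64 families of gene symbols with at least 20 tested members, looked at after the values were known, the unnamed gene models starting with Rn60 had 20 of 88 members higher and 1 lower, the zinc finger genes named Zfp had 52 of 252 higher and 1 lower, and the collagens named Col had 3 of 39 higher and 10 lower, where 6.33% of all genes were called higher and 3.08% lower. In a list of SR splicing factors and their kinases written at the same stage, 4 of 16 rose: Clk1, at 14.6, 13.3 and 21.3 FPKM in Emo-6h and 34.0, 80.2 and 81.2 FPKM in Emo-24h (log2 fold change 1.95, SE 0.56, adjusted p = 0.00979), Clk4 (1.44), Srsf5 (1.38) and Srsf1 (1.01). Reads were found on more genes in Emo-24h than in Emo-6h, as given above. By the study's own figures, every Emo-24h library had a higher share of uniquely mapped reads and less duplication than any Emo-6h library. The part of library composition and of these differences in the shifts was not tested. AABR07019088.1 lost its call without replicate 1 of Emo-6h or replicate 3 of Emo-24h (adjusted p = 0.0619 to 0.101), Rn60_1_1359.1 without replicate 2 of Emo-6h or replicate 1 or 2 of Emo-24h (log2 fold change 0.91 to 1.00), AABR07004868.2 without replicate 3 of Emo-6h or replicate 2 of Emo-24h (adjusted p = 0.0627 to 0.109), Clk4 without replicate 3 of Emo-24h (adjusted p = 0.0767) and Srsf1 without replicate 1 or 2 of Emo-6h or replicate 2 of Emo-24h (log2 fold change 0.85 to 0.96).

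**Figure D4:**
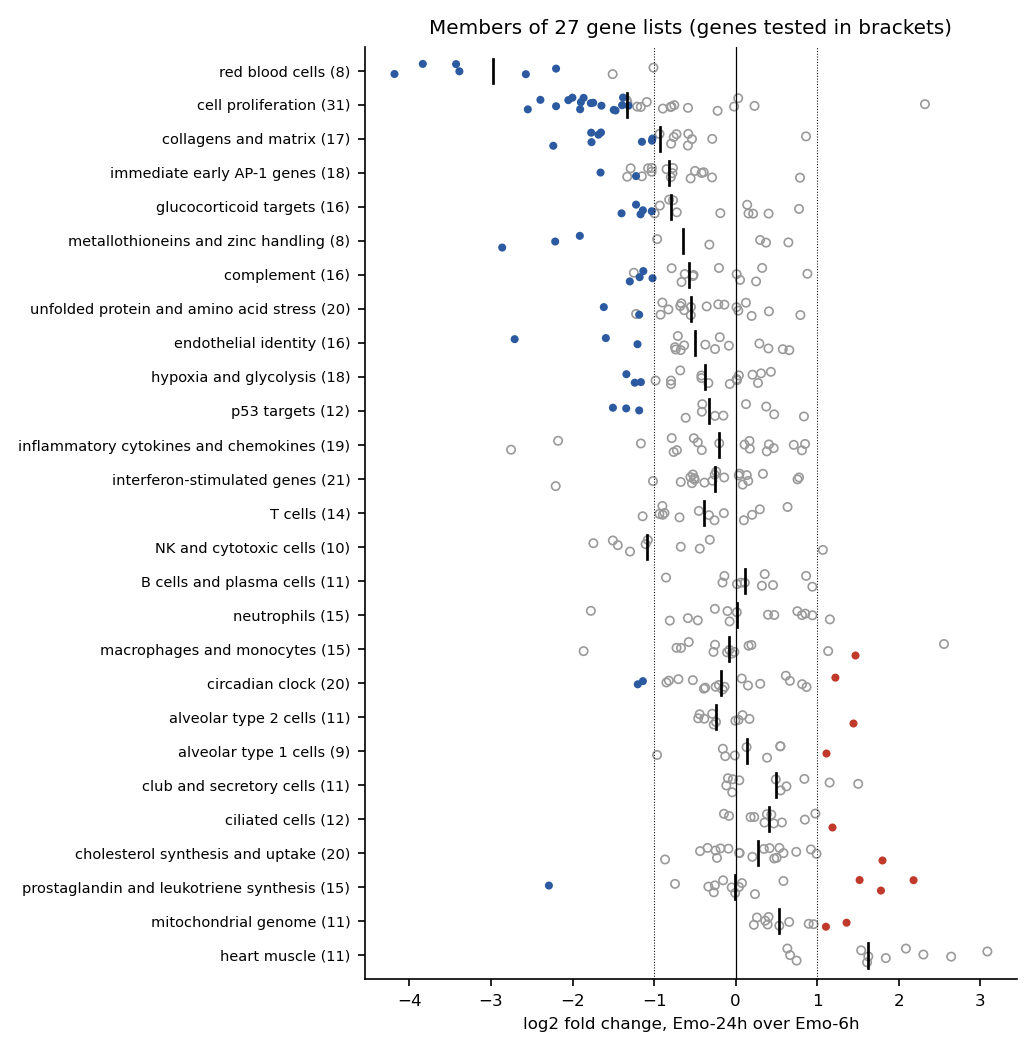
Each circle is the log2 fold change (Emo-24h over Emo-6h) of 1 tested member of the gene list named at the left, filled blue where called lower, filled red where called higher and open where not called. The vertical bars are list medians, from -2.98 for red blood cell genes and -1.34 for proliferation to 1.63 for heart muscle genes, none of which was called.

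None of the heart muscle genes was called by edgeR or DESeq2, and 0 passed an unadjusted p under 0.05. Their median log2 fold change was 1.63 over 11 genes, 3.31 with 1 gene called higher without replicate 2 of Emo-6h, and 1.05 without replicate 3 of Emo-6h. Their summed level was 50.8, 163 and 18.6 FPKM in Emo-6h and 297, 145 and 221 FPKM in Emo-24h. The troponin gene Tnnt2 was 4.67, 16.4 and 1.53 FPKM in Emo-6h and 40.8, 21.6 and 35.5 FPKM in Emo-24h (adjusted p = 0.229). Its ranges were separate, while the summed level of replicate 2 of Emo-6h lay within the range of Emo-24h. Muscle of the pulmonary veins holds these genes in rodents, and how much of it each piece of lung held was not tested.

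A set of 12 genes had been picked for qPCR from these same samples, so its members are no independent evidence of a direction. Of them 1 rose and 3 fell, against 6.33% of all genes called higher and 3.08% lower. Without replicate 2 of Emo-6h 2 were called higher and 4 lower, and without replicate 2 of Emo-24h 0 and 2 were. Cebpb, a transcription factor of the acute response, fell, from 345, 251 and 385 FPKM in Emo-6h to 119, 146 and 167 FPKM in Emo-24h (log2 fold change -1.22, SE 0.28, adjusted p = 0.00195). Sema7a, a membrane semaphorin, was 162, 53.5 and 142 FPKM in Emo-6h and 34.7, 24.3 and 59.9 FPKM in Emo-24h (log2 fold change -1.63, SE 0.42, adjusted p = 0.00465). In Sema7a replicate 2 of Emo-6h lay within the Emo-24h range, and Cdkn1a, the third that fell, is given above. Nrp1, a coreceptor of VEGF and semaphorins, rose, from 13.5, 18.2 and 12.5 FPKM in Emo-6h to 36.4, 42.9 and 22.7 FPKM in Emo-24h (log2 fold change 1.16, SE 0.25, adjusted p = 0.00125). Nrp1 lost its call without replicate 2 of Emo-24h (log2 fold change 0.95). The other 8 were not called: Maff (-0.77), Socs2 (-0.23), Susd2 (-0.22), Tbx2 (0.10), Serpina1 (0.11), Fgfr4 (0.14), Serpinb9 (0.36) and Cxcl12 (0.79, log2 fold changes). Of these, Cxcl12 was nearest the threshold, at 4.87, 8.42 and 3.81 FPKM in Emo-6h and 15.4, 8.17 and 6.97 FPKM in Emo-24h (adjusted p = 0.0504).

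The same time step was read in the other arms, which share no library with the Emo arm. In DEX rats 1137 genes (7.14%) were called, 514 higher and 623 lower. In SAP rats without a drug 386 (2.42%) were called, 109 higher and 277 lower. In Sham rats 41 (0.257%) were called, 39 of them higher. In Con rats 1 gene (0.00628%) was called, with 541 at an unadjusted p under 0.05 and 2-fold. Genes called in both Emo and DEX with the same direction numbered 449, which is 29.9% of the Emo calls and 39.5% of the DEX calls, and 3 went in opposite directions. For SAP the same-direction overlap was 136 genes, or 9.07% of the Emo calls and 35.2% of the SAP calls, with 4 in opposite directions. For Sham it was 29 genes, or 1.93% of the Emo calls and 70.7% of the Sham calls. The genes that rose in Emo had a median log2 fold change of 0.86 in DEX, 0.68 in Sham, 0.33 in SAP and 0.16 in Con, and the genes that fell had medians of -1.02, -0.55, -0.67 and -0.34.

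Whether a time effect differed between arms was tested as an interaction. Against SAP, 268 genes (1.68%) differed, 169 with a higher and 99 with a lower change in Emo, and 154 of them were among the 1500. The count rested on single libraries, since it was 1 without replicate 2 of SAP-6h, 3, 605 and 47 without replicates 1, 2 and 3 of Emo-6h, 67 and 23 without replicates 1 and 2 of Emo-24h, 467 without replicate 1 of SAP-6h, 161 without replicate 1 of SAP-24h, and 2 when only the 12 libraries of both arms were fitted. Adh7 rose in Emo and fell in SAP (log2 fold change -3.23), a difference of 6.80 ± 1.11 (SE), adjusted p = 0.0135. Hpgds had a log2 fold change of -1.27 in SAP (difference 3.05 ± 0.67 (SE), adjusted p = 0.023). The chromosome 17 entry of Mt1 fell in Emo and had a log2 fold change of 1.33 in SAP (difference -3.55 ± 0.86 (SE), adjusted p = 0.0325). Cebpb (-1.66 ± 0.39 (SE), adjusted p = 0.0295), Fosl2 (-1.65 ± 0.39 (SE), adjusted p = 0.0295), Plaur (-1.51 ± 0.34 (SE), adjusted p = 0.0251) and Sema7a (-2.15 ± 0.58 (SE), adjusted p = 0.0435) fell in Emo and had positive log2 fold changes in SAP that were not called. Hibch, an enzyme of valine breakdown, had the smallest p of this comparison, with log2 fold changes of 1.46 in Emo and -0.16 in SAP (difference 1.63 ± 0.23 (SE), adjusted p = 0.00429). In DEX rats Adh7 (log2 fold change 2.62), the chromosome 17 entry of Mt1 (-2.04) and Hibch (1.14) were called in the same direction as in Emo. The other genes named in this paragraph had the same sign in DEX as in Emo and were not called there.

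Against DEX, 9 genes (0.0565%) differed, with 733 at an unadjusted p under 0.05 and 2-fold, and 1 to 21 when a library was left out (21 without replicate 3 of Emo-24h). Apln fell in both arms and more under DEX (log2 fold change -6.26, difference 3.55 ± 0.64 (SE), adjusted p = 0.0307). Postn, the matrix protein periostin, was 68.8, 70.1 and 73.5 FPKM in Emo-6h and 56.1, 72.3 and 19.3 FPKM in Emo-24h, with a log2 fold change of -3.97 in DEX (difference 3.39 ± 0.57 (SE), adjusted p = 0.0209). Ccr7, the homing receptor of naive T cells and dendritic cells, had log2 fold changes of -0.62 in Emo and -4.14 in DEX (difference 3.52 ± 0.63 (SE), adjusted p = 0.0307). Abca8a, Art2b, Lrrc4, Bank1 and Slc1a4 were also among the 9. Against Sham, 1 gene (0.00628%) differed, an entry on chromosome 4 with the ribosomal protein symbol Rps4x. It had log2 fold changes of 1.34 in Emo and -0.07 in Sham (difference 1.41 ± 0.23 (SE), adjusted p = 0.0445). Its FPKM values were 6.70, 7.23 and 7 FPKM in Emo-6h and 19.2, 18.3 and 17.1 FPKM in Emo-24h. Ribosomal protein genes have processed copies that can share reads, and whether this entry is the gene or such a copy was not tested. Rps4x lost this call without any 1 of the 6 Emo libraries, without 4 of the 6 Sham libraries, with size factors from the ratio to a median library (RLE) in place of TMM, with no filter on low counts, in a fit of only the libraries compared and with the replicate block. For Sham, 365 genes passed an unadjusted p under 0.05 and 2-fold, and DESeq2 called 11. A time effect that was called in Emo and not in Sham is therefore not shown to differ between them for the other genes.

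**Figure D5:**
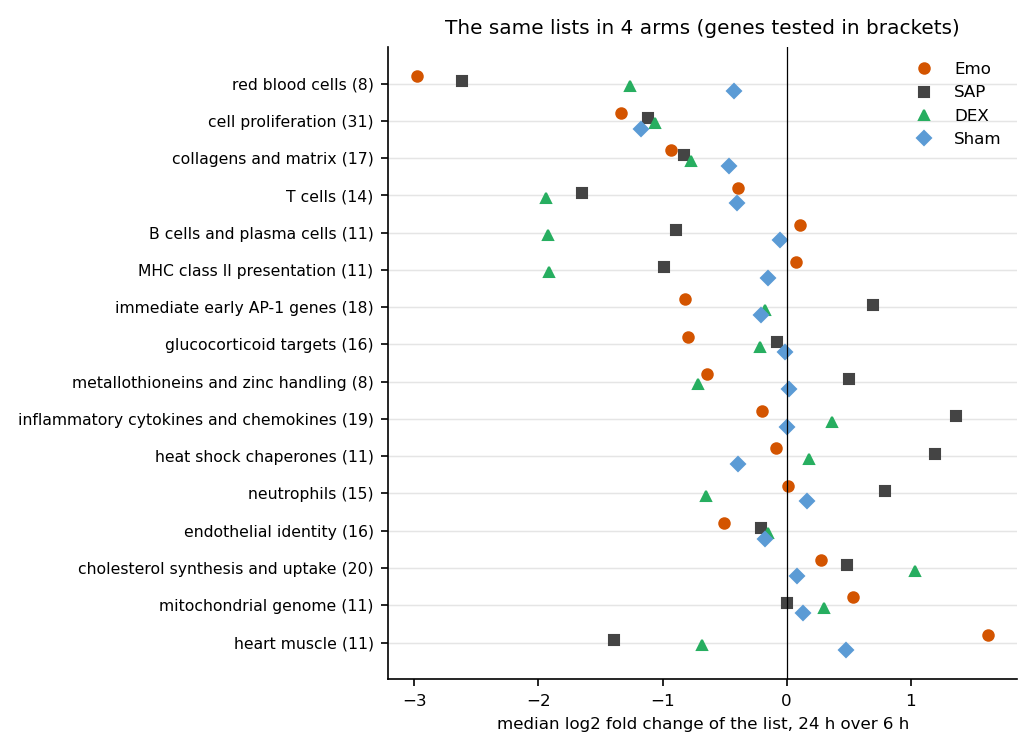
Median log2 fold change from 6 to 24 hours of each gene list in the Emo, SAP, DEX and Sham arms, each from 3 rats per time. Proliferation genes had medians of -1.34 in Emo, -1.12 in SAP, -1.06 in DEX and -1.17 in Sham, while cytokines and chemokines had medians of -0.20 in Emo, positive without replicate 1 or 3 of Emo-6h, and 1.37 in SAP.

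Read by list, proliferation genes had a median log2 fold change of -1.34 in Emo, -1.12 in SAP, -1.06 in DEX, -1.17 in Sham and -1.58 in Con, with 16, 1, 7, 0 and 0 members called lower. Over all 15934 genes tested, 491, 277, 623, 2 and 0 were called lower in these arms, and 1009, 109, 514, 39 and 1 higher. Collagen and matrix genes had medians of -0.93, -0.83, -0.77, -0.46 and -0.24 in the same order, with 8, 6, 6, 0 and 0 called lower. The T cell genes had a median of -0.39 in Emo with no call, of -1.64 in SAP with 4 called lower, of -1.94 in DEX with 10 called lower and of -0.40 in Sham and -0.17 in Con with no call. Their Emo median was -0.75 to -0.037 over the left-out Emo libraries, nearest 0 without replicate 3 of either Emo group, with 2 called lower without replicate 2 of Emo-6h and 1 without replicate 1 of Emo-24h. MHC class II genes had medians of 0.07, -0.99, -1.92, -0.15 and -0.50 in Emo, SAP, DEX, Sham and Con, with 0, 2, 7, 0 and 0 called lower. Their Emo median turned to -0.19 without replicate 3 of Emo-6h and -0.16 without replicate 1 of Emo-24h, and was 0.27 without replicate 1 of Emo-6h. The cytokines and chemokines had medians of -0.20, 1.37, 0.36, 0.00 and 0.25 in these arms, with 0, 4, 1, 0 and 0 called higher and 2 called lower in DEX. Their Emo median turned to 0.064 without replicate 1 and 0.29 without replicate 3 of Emo-6h, and without replicate 3 of Emo-24h 1 was called higher. The immediate early genes had medians of -0.82, 0.70, -0.17, -0.20 and 0.04 in the same order, with 2 called lower in Emo and none in the other arms. Red blood cell genes had medians of -2.98, -2.62, -1.26, -0.43 and -1.32, with 6, 6, 0, 0 and 0 of 8 called lower. The difference between arms was not tested for lists.

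Pearson correlations across 22907 genes on log2(FPKM + 1) were 0.979 to 0.992 within Emo-6h, 0.988 to 0.990 within Emo-24h and 0.969 to 0.982 between the groups, and genes are not independent replicates. Counts of libraries in a group differed by 35.4 to 158 times the counting variance, so no library was treated as a second deposit of another.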

How the data were processed

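Lung RNA of 30 rats, 1 library per rat and 3 per group, had been sequenced by the study from directional poly(A) libraries with paired ends. The authors clipped reads with the FASTX-Toolkit, aligned them with TopHat2 to the Ensembl rat genome, discarded reads with several positions and counted uniquely mapped reads, and the submitters' processing notes also name bcl2fastq and edgeR. The counting program and its strand setting are not given in the sources used here, so overlapping and antisense genes are uncertain. The authors deposited a table of raw counts per gene (22914 genes) and a table of FPKM, which are fragments scaled for gene length and library size (22907 genes, 2 decimals). Groups were taken from the sample labels. The 6 Emo libraries held 25012600 to 30368850 counted reads.

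Counts were tested with edgeR 4.0.16 in R 4.3.3 by the quasi-likelihood test with TMM scaling, in 1 model of 10 groups over the 30 libraries (20 residual degrees of freedom). Genes were kept by filterByExpr (minimum count 10, minimum total 15), and p-values were adjusted by Benjamini-Hochberg over the 15934 genes tested. Calls needed at least a 2-fold change, as in the study, together with an adjusted p under 0.05. Differences between arms were contrasts of the same model. FPKM served for levels and for a limma alternative on log2 values (pseudocount 1 or 0.1). Scaling, filter, tool (DESeq2 1.42.0, limma 3.58.1), sample set, replicate block and left-out libraries were changed in turn. The fitting code was tested on simulated data.

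Named genes were the 8 largest rises and falls and the 5 largest gains and losses of FPKM among called protein-coding genes with at least 1 FPKM in a group and no overlap, up to 3 called members per list and direction, the 12 qPCR genes and 3 lncRNAs per direction. Other called genes were named after their values were seen. The comparison and the lists were chosen with earlier results of these data known, and the lists of pancreatic enzymes and splicing factors and the view by symbol family were added later still. Sequences came from RefSeq (GRCr8). With 3 rats a group, SEs and p-values rest on the spread between rats within all 10 groups of the model. They do not measure the spread among the 6 Emo rats alone, and they cover only the rats of this study. Some items are not reported here.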

Additional observations from a re-analysis of the deposited data

Results flagged for a closer look

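For 13 of the named genes or entries the change from 6 to 24 hours differed from that of another arm in the test of the difference itself (edgeR interaction, adjusted p under 0.05). Against SAP rats without a drug, Adh7 changed by 6.80 more on the log2 scale in Emo, Hpgds by 3.05 more and Mt-nd4 by 1.13 more. Genes with a lower change in Emo than in SAP were Nfil3 (difference -2.12), Fosl2 (-1.65), Bcl3 (-2.15), Plaur (-1.51), Sema7a (-2.15) and Cebpb (-1.66). The same held for the lncRNA AABR07047256.1 (-2.19) and both entries of Mt1, with differences of -3.55 for ENSRNOG00000038047 on chromosome 17 and -3.48 for ENSRNOG00000025764 on chromosome 19. In DEX rats Adh7 was called higher as well (log2 fold change 2.62). Nfil3 (-1.41), Bcl3 (-1.20) and the chromosome 17 (-2.04) and 19 (-1.93) entries of Mt1 were called lower in DEX too. The others had the same sign in DEX as in Emo and were not called there. None of these genes that differed from SAP was called different from DEX. Against DEX, Apln changed by 3.55 more in Emo, where it fell less. The 12 differences from SAP had adjusted p-values of 0.0135 to 0.0435, and the one from DEX 0.0307. These calls rest on few libraries, since the number of genes called over the whole comparison with SAP was 1 without replicate 2 of SAP-6h and 3 without replicate 1 of Emo-6h.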

How the results depend on the processing

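The count of 1500 genes was 1840 at an unadjusted p, 1562 with DESeq2, 1484 with RLE scaling, 1440 without the filter on low counts, 1313 when the 6 Emo libraries were fitted alone and 1122 to 1738 when 1 of them was left out. Limma on log2(FPKM + 1) called 493 genes, 274 higher and 219 lower, and 1298 with a pseudocount of 0.1. Among genes of at least 1 FPKM, 640 were called higher and 411 lower, so that 60.9% of calls were higher. Replicate numbers did not pair the rats, since each library came from a different rat. The deviations of same-numbered libraries correlated at -0.10, -0.05 and 0.01, and whether such libraries shared a batch was not tested. With the replicate number as a block 1423 genes were called, 1369 of them among the 1500. The mean correlation between Emo-6h and Emo-24h libraries was 0.945 over genes of at least 1 FPKM, against 0.974.

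The differences between arms depended on the setting, and the cause was not tested. The 268 genes that differed from SAP were 1399 at an unadjusted p, 598 with DESeq2, 2 with only the libraries compared, 279 with the replicate block and 1 to 605 when a library was left out. The 9 genes that differed from DEX were 733, 96, 1, 1 and 1 to 21 under the same settings. The single gene that differed from Sham was joined by others at an unadjusted p (365) and with DESeq2 (11), while RLE scaling, no filter, only the libraries compared and the replicate block gave 0, and leaving out a library gave 0 to 1.

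Of the fits of named genes with another scaling, tool, sample set or block, 345 kept direction and call and 18 lost the call. With a library left out, 423 did so, 113 lost the call, 2 gained it and 8 turned in sign. Those 8 were fits of 5 genes that were not called, namely Fgfr4 (log2 fold changes of -0.12 to 0.40 over the left-out libraries), Serpina1 (-0.14 to 0.58), Socs2 (-0.81 to 0.017), Susd2 (-0.68 to 0.015) and Tbx2 (-0.16 to 0.30). Depth limits the lowest genes, such as Ctrb1 with 1, 6 and 1 reads in Emo-24h.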
